A study of Mus musculus with 5 samples.

Results

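The splicing factor and hnRNP genes described here are those whose mouse symbol starts with Hnrnp, Snrp, Sf3a or Sf3b, or is Srsf followed by a number. They were taken from probe sets annotated with exactly 1 symbol, which gave 47 of 18194 named genes and 139 of 45101 probe sets: 19 Hnrnp genes, 10 Srsf, 9 Snrp, 6 Sf3b and 3 Sf3a. Whole blood of adult female mice was drawn from the heart under Avertin anaesthesia, and its RNA was amplified in 2 cycles and measured on Affymetrix arrays, 1 array per sample. The AKRxFVB F1 group held 2 samples of first-generation mice with an AKR/J and an FVB/NJ parent. The DBAxFVB F1 group held 3 samples with a DBA/2J and an FVB/NJ parent, so that both groups carry 1 FVB genome and differ in the other. No treatment beyond the anaesthesia is named. The study compared basal expression in blood between these genotypes.

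Introns are cut from messenger RNA precursors by the spliceosome, which is built from small nuclear ribonucleoproteins (snRNPs). Most spliceosomal snRNPs carry a ring of Sm proteins (among them Snrpb, Snrpd3, Snrpe, Snrpf and Snrpg), while that of U6 carries related Lsm proteins, and each has particle-specific proteins such as Snrpc of the U1 particle. The SF3a and SF3b complexes belong to the U2 particle and hold the branch point. SR proteins (Srsf genes) bind exons and help to recruit the machinery, whereas hnRNP proteins coat the nascent transcript and often oppose the use of a site. Members of both protein families also work in RNA export, stability and translation, and alternative splicing by hnRNPs such as Hnrnpll shapes lymphocyte surface proteins.

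Promoters are shown for 4 member genes that differ in direction below: the hnRNP genes Hnrnpk and Hnrnpu and the Sm gene Snrpe, which read lower in DBAxFVB F1, and the Sm gene Snrpd3, whose probe sets disagreed. Each sequence is the 120 bases before the transcript start in RefSeq (GRCm38.p6), 5′ to 3′ on the gene's strand. Capitals mark a match on either strand to CCGGAA (the core bound by ETS factors), GGGCGG (a GC box), CCAAT (the letters bound by NF-Y), to GCGCATG (part of an NRF1 site) or to TATAAA.
Hnrnpk, chr13:58402118-58402237, minus strand: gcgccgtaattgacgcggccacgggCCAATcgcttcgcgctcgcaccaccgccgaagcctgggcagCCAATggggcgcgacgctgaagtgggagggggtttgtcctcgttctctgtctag
Hnrnpu, chr1:178337816-178337935, minus strand: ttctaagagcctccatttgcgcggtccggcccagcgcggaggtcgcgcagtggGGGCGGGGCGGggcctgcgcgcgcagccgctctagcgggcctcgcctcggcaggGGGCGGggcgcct
Snrpe, chr1:133610281-133610400, minus strand: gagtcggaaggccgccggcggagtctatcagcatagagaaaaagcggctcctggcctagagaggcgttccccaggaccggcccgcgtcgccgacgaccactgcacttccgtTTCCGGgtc
Snrpd3, chr10:75517922-75518041, plus strand: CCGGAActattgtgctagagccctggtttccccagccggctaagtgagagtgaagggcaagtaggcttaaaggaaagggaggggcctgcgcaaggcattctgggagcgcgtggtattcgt
The window of Hnrnpk held 2 CCAAT matches and that of Hnrnpu 3 GC boxes, 2 of which overlap each other. Those of Snrpe and Snrpd3 held 1 ETS core each, and none of the 4 held a TATA match. Over the 250 bases before each start, 42 of the 47 members matched 58 windows, of which 46.6% held the ETS core, against 15% of 21262 windows of all protein-coding genes. The shares were 65.5% against 42.6% for the GC box, 44.8% against 35.4% for CCAAT, 5.17% against 3.96% for the NRF1 letters and 8.62% against 11.6% for TATAAA. The median GC content was 60.6% in member windows and 55.6% in all, and windows of 1 gene can overlap, so these shares are descriptions only.

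The values are normalized log2 expression per probe set. All differences are DBAxFVB F1 minus AKRxFVB F1 in log2 units, so that -1 is a fold of 2 lower in DBAxFVB F1, and ± after a difference gives its moderated standard error (SE) from limma. Levels of different probe sets cannot be set against each other. Where a gene had several probe sets, the one with the highest mean over the 5 arrays stands for it. The test was limited to probe sets with a mean of at least 2.51, which is the median over the non-control ones. The labels do not say whether samples came from separate animals, so p-values measure only the spread between these samples, and 2 arrays against 3 limit the precision of every value.

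One array stood apart. On DBAxFVB F1 array 3, the 18 hybridisation controls had a median of 7.99, against 10.01 to 10.12 on the other 4 arrays. The difference between 3-prime and 5-prime Actb controls, a sign of RNA quality, was 1.32 on that array, 0.68 and 0.82 on the other DBAxFVB F1 arrays and 1.03 and 1.22 in AKRxFVB F1. B cell markers had 8 of 9 genes lower in DBAxFVB F1, with a summed linear signal of 292 and 624 in AKRxFVB F1 and 143 to 252 in DBAxFVB F1. T cell markers had 6 of 8 lower, with sums of 200.5 and 206 against 132.5 to 173, and none of these 17 lymphocyte markers had a mean below the filter. Monocyte markers had 6 of 9 lower, with sums of 1255 and 1695 against 648 to 1303. Platelet markers had 8 of 8 lower, with sums of 3200 and 6057 against 1394 to 4783. Neutrophil markers had 2 of 8 tested genes lower and erythroid markers 3 of 7. Of 10 heart muscle markers, which a cardiac puncture could bring, 4 had means below the filter; of the 6 tested, 4 were higher in DBAxFVB F1, with Actc1 (0.75) and Myl2 (0.78) at an unadjusted p below 0.05. Their sums were 99 and 107 in AKRxFVB F1 and 112 to 149 in DBAxFVB F1. The summed B cell, T cell and heart muscle signals thus did not overlap between the crosses. The Actb control overlapped only through DBAxFVB F1 array 3. The same difference of the Gapdh controls also did, at 1.04 and 0.73 in AKRxFVB F1 and 0.62, 0.58 and 1.33 in DBAxFVB F1. The part of these cell, tissue and RNA quality differences in the results below was not tested.

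Most splicing factor and hnRNP genes read lower in DBAxFVB F1 blood, and none passed the threshold of an adjusted p below 0.05. Of 47 genes, 42 were tested, and 35 of these were lower and 7 higher, while 41.7% of all 12419 tested named genes were lower (43.2% of all 22519 tested probe sets). Among the lower ones, 19 had an unadjusted p below 0.05, which is 45.2% of those tested, against 6.4% of all named genes. Among the higher ones 1 did (Sf3a2), against 3.62% of all; with the replicate number as a block it was Snrpd3 instead (limma adjusted p = 0.278), and Sf3a2 no longer reached it (limma adjusted p = 0.488). Over all tested probe sets, 1529 were lower and 808 higher at that p; with the arrays centred on their medians these counts were 1749 and 521, and after cyclic loess normalization 1689 and 454. No probe set passed the adjusted threshold by limma (0%). The smallest limma adjusted p of a member was 0.144. Each DBAxFVB F1 array lay below each AKRxFVB F1 array for 21 members, where 11.9% of all named genes did so, and above for 3, where 17% did. The median difference was -0.39 over the 42 tested members and -0.37 over all 47, against 0.05 over all tested named genes. A fold of 2 or more lower was seen for 8 members, against 2.25% of all. Without AKRxFVB F1 array 1 the 19 genes became 12, with 3.89% of all named genes, and without any other single array they numbered 14 to 18. Without DBAxFVB F1 array 3 there were 18 genes, and the median was -0.38.

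**Figure D1:**
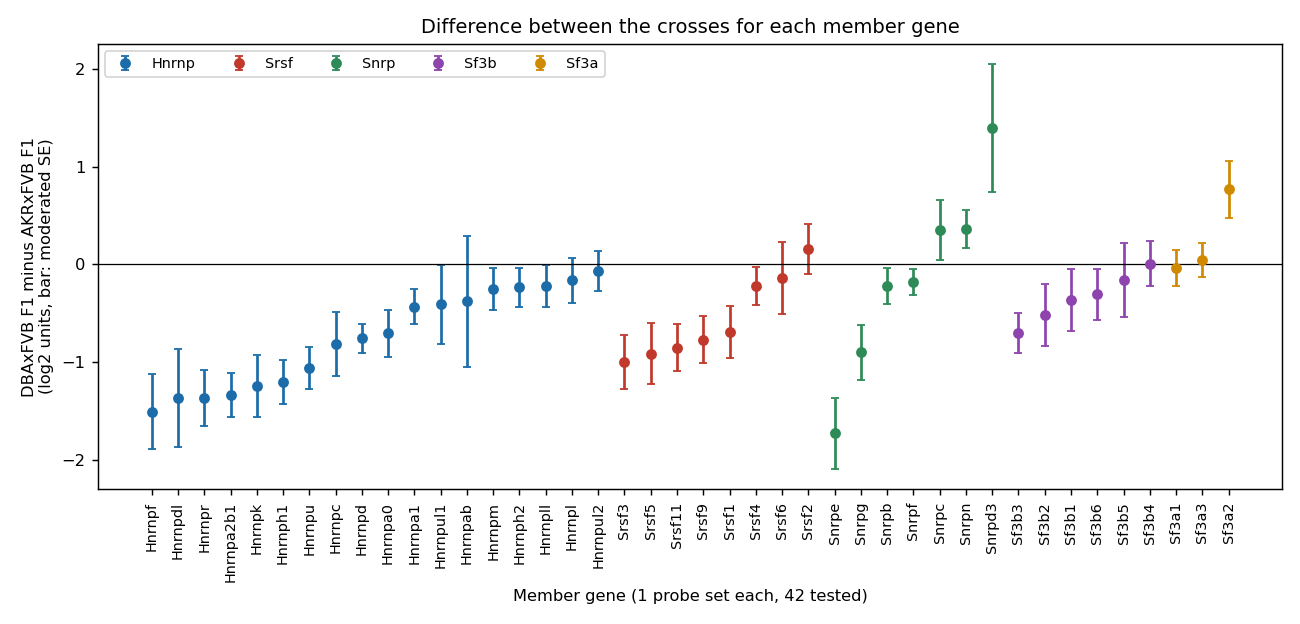
Difference between the crosses (DBAxFVB F1 minus AKRxFVB F1, log2 units) for the 42 tested member genes, ordered by family and size, with the moderated SE as bars. All 18 Hnrnp points lie below 0 in the deposited values (Hnrnpab turns to 0.35 after cyclic loess normalization and Hnrnpul1 to 0.07 after quantile normalization), while Snrp runs from -1.73 (Snrpe) to 1.39 (Snrpd3).

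The hnRNP genes held most of the larger differences. All 18 tested genes were lower in the deposited values, with a median of -0.73. Of them, 11 had an unadjusted p below 0.05 (61.1%, against 6.4% of all named genes). Hnrnpab turned to 0.35 after cyclic loess normalization and also without DBAxFVB F1 array 3, and Hnrnpul1 to 0.07 after quantile normalization. The other tested probe sets of Hnrnpab differed by -1.35 ± 0.32 and -0.88 ± 0.25, both with separate groups. With 1 array left out, Hnrnpl turned to 0.0006 (AKRxFVB F1 array 1), Hnrnph2 to 0.04 (AKRxFVB F1 array 2) and Hnrnpul2 to 0.04 (DBAxFVB F1 array 1). The other tested probe set of Hnrnpul2 differed by -0.72 ± 0.22. The count of 11 was 7 without DBAxFVB F1 array 2 and 8 to 10 without any other array. Hnrnph3 was under the filter. Hnrnpa2b1, a core hnRNP that also sorts RNA for transport, read 5.52 and 5.13 in AKRxFVB F1 and 4.08, 3.96 and 3.94 in DBAxFVB F1. The AKRxFVB F1 arrays were both above all DBAxFVB F1 arrays, whose SD was 0.08 (n = 3), and the difference was -1.33 ± 0.22 (limma adjusted p = 0.144). Hnrnph1, which binds runs of G in exons and introns, read 4.59 and 4.28 against 3.46, 2.93 and 3.31, a difference of -1.20 ± 0.22 (limma adjusted p = 0.152). Its relative Hnrnpf read 8.52 and 8.16 against 7.26, 6.94 and 6.31, a difference of -1.50 ± 0.39. In both genes the groups were separate, and in Hnrnpf the array that stood apart was the lowest. These genes and others below were chosen for a small p, which goes with separate groups. Their separation is thus no further support.

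Hnrnpu, which also anchors chromatin to the nuclear scaffold, read 5.50 and 5.52 against 4.35, 4.49 and 4.5. The arrays of each group lay close together, and the difference of -1.06 ± 0.22 ranged only from -1.09 to -1.01 with 1 array left out. Hnrnpk, which binds C-rich RNA through KH domains, read 7.96 and 7.82 against 6.86, 6.70 and 6.38, a difference of -1.24 ± 0.32. After quantile normalization of the arrays it was -0.73. Hnrnpf was likewise nearer to 0 after that step, at -0.99, whereas Hnrnpa2b1 and Hnrnph1 stood at -1.22 and -1.19.

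Hnrnpd, which binds AU-rich elements and destabilises transcripts, read 3.33 and 3.08 against 2.49, 2.33 and 2.52, a difference of -0.76 ± 0.15 (limma adjusted p = 0.172). Hnrnpr read 4.37 and 3.47 against 2.67, 2.23 and 2.77, with separate groups and the arrays of AKRxFVB F1 far apart. Its difference was -1.36 ± 0.29, or -0.91 without AKRxFVB F1 array 1. The DBAxFVB F1 mean of Hnrnpd, 2.45, lay below the filter, so that it was tested only through its AKRxFVB F1 level, and a difference was needed for that. Hnrnpd is still among the 11 hnRNP genes and the 19 members counted above. The DBAxFVB F1 mean of Hnrnpr was 2.56, just above the filter. The other hnRNP genes with an unadjusted p below 0.05 were Hnrnpa0 (-0.70), Hnrnpa1 (-0.43), Hnrnpc (-0.81) and Hnrnpdl (-1.36). The 7 that did not reach it lay between -0.41 and -0.07 and included Hnrnpl (-0.16), which binds CA repeats, its relative Hnrnpll (-0.22) and Hnrnpm (-0.25).

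**Figure D2:**
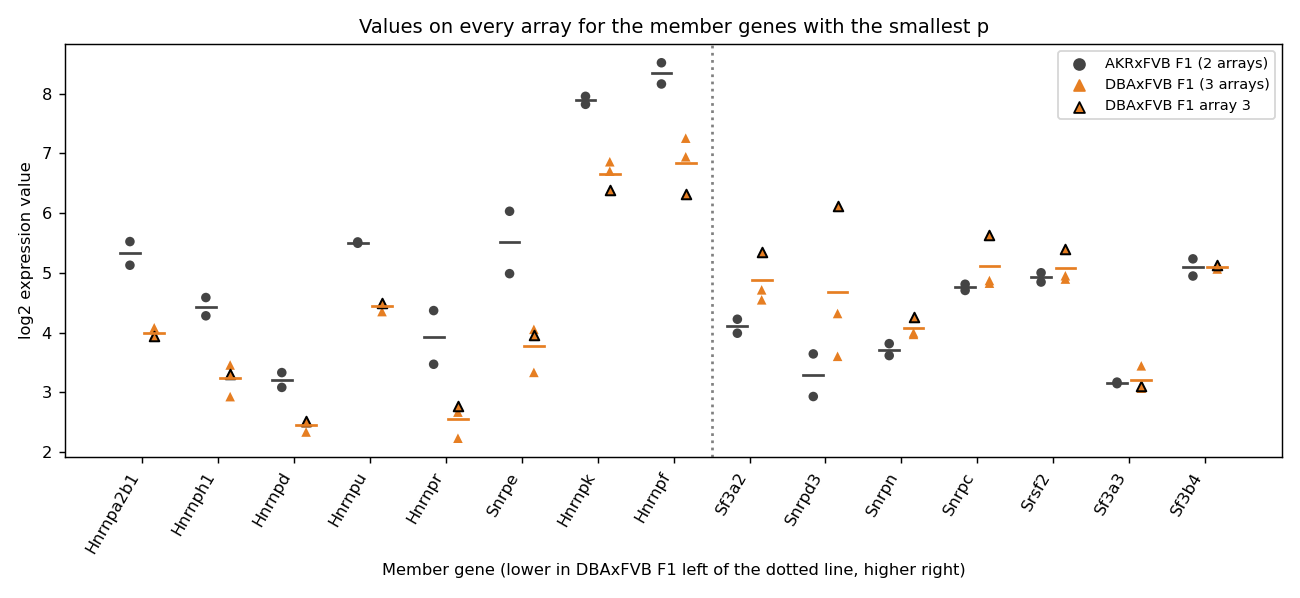
Log2 expression values on the 5 arrays for the 8 lower member genes with the smallest p and for all 7 higher ones (1 probe set each; short lines are group means; DBAxFVB F1 array 3 is outlined in black). Levels are not comparable between genes, and in Snrpd3 array 3 stands at 6.12. In the 8 left genes no triangle reaches a circle, which goes with their choice by a small p.

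The SR protein genes were also mostly lower. Of 8 tested, 7 were lower, with a median of -0.73, and 5 had an unadjusted p below 0.05 (62.5%, against 6.4% of all named genes). That count was 2 without AKRxFVB F1 array 1, 3 without DBAxFVB F1 array 2 and 4 or 5 without another array, while Srsf10 and Srsf12 were under the filter. Srsf3, the smallest classical SR protein, which couples splicing to export, read 4.10 and 4.18 against 3.31, 2.60 and 3.51, a difference of -1.0 ± 0.27 (limma adjusted p = 0.267). Srsf11 read 4.6 and 4.45 against 3.96, 3.77 and 3.30, and differed by -0.85 ± 0.24. Srsf5 differed by -0.91 ± 0.31, Srsf9 by -0.77 ± 0.24 and Srsf1, the founding member of the family, by -0.69 ± 0.27, which was -0.34 without AKRxFVB F1 array 2. Groups did not overlap in these 5 genes (62.5% of the 8 tested), while 11.9% of all named genes were lower without overlap. The 5 were named for a small p, which goes with separate groups, so the separation is no further support. Srsf4 differed by -0.22 ± 0.20. Srsf6 differed by -0.14 ± 0.37, and its sign turned without DBAxFVB F1 array 3 (0.15), after quantile (0.28) and after cyclic loess normalization (0.15). The other tested probe sets of Srsf6 were all lower, at -0.78 ± 0.24, -0.37 ± 0.23 and -0.23 ± 0.24. Srsf2, which marks nuclear speckles, read 4.85 and 5.0 against 4.95, 4.90 and 5.40, so that only the array that stood apart exceeded AKRxFVB F1, and without it the difference was -0.0004.

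The snRNP protein genes lay in both directions. Of 7 tested, 4 were lower and 3 higher, with a median of -0.18. Snrpe, part of the Sm ring, had the largest difference of any member: 6.03 and 4.99 against 4.05, 3.33 and 3.96, or -1.73 ± 0.36 (limma adjusted p = 0.182). Its groups were separate, but AKRxFVB F1 array 1 lay well above array 2, and the difference ranged from -2.25 to -1.20 with 1 array left out. Its ring partner Snrpg read 5.84 and 6.01 against 5.18, 5.23 and 4.67, a difference of -0.90 ± 0.28. The values of both Snrpe and Snrpg come from _s_at probe sets, and Snrpe had no other probe set. The other tested probe set of Snrpg differed by -0.33 ± 0.20, with separate groups but an unadjusted p above 0.05. The ring partners Snrpf and Snrpb differed by -0.18 ± 0.13 and -0.22 ± 0.18, neither at an unadjusted p below 0.05.

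Snrpd3, another Sm ring protein, ran the other way by its brightest probe set, at 2.93 and 3.64 against 3.60, 4.32 and 6.12. The difference of 1.39 ± 0.65 was the highest of all 22519 tested probe sets, yet the groups overlapped and it had an unadjusted p of 0.0663. It was 0.675 without DBAxFVB F1 array 3. The other 2 tested probe sets of Snrpd3 differed by -0.39 ± 0.21 and 0.04 ± 0.14. Snrpc read 4.71 and 4.81 against 4.83, 4.87 and 5.63, and its difference of 0.35 ± 0.30 was 0.09 without array 3. Snrpn, the paralogue of Snrpb that is imprinted and most abundant in brain, read 3.81 and 3.61 against 3.97, 3.99 and 4.26, with separate groups and a difference of 0.36 ± 0.20. Snrpa1 and Snrpb2, both of the U2 particle, were under the filter, with Snrpb2 at 2.77 and 2.73 against 2.19, 2.00 and 2.39.

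Of the 9 tested SF3 genes of the U2 particle, 1 was lower and 1 higher at an unadjusted p below 0.05. For the lower one this is 11.1%, against 6.4% of all named genes, and 3.62% of all were higher at that p. With 1 probe set per gene, counts of 1 thus set the SF3 genes little apart from all genes. Over all 17 tested Sf3b probe sets, 5 were lower at that p (29.4%, against 6.79% of all probe sets). Among these 5, a probe set of Sf3b1 and another of Sf3b6 had a DBAxFVB F1 mean below the filter. Of the 5 tested Sf3a probe sets, 0 were lower and 1 was higher at that p. Of 6 Sf3b genes 5 were lower, 1 at an unadjusted p below 0.05, with a median of -0.34. The median was -0.09 without AKRxFVB F1 array 1, with 0 genes at that p by limma, and -0.60 without AKRxFVB F1 array 2. That gene was Sf3b3, which read 4.73 and 4.58 against 3.90, 3.81 and 4.14, a difference of -0.70 ± 0.21 (limma adjusted p = 0.309). Sf3b1, which holds the branch point and is often mutated in myelodysplastic blood disease, read 6.67 and 6.01 against 6.06, 5.75 and 6.10, and its groups overlapped (-0.37 ± 0.32). After quantile normalization 3 of the 6 were lower, with a median of -0.15. Among the Sf3a genes, Sf3a2 read 4.22 and 3.99 against 4.55, 4.72 and 5.35, with separate groups and a difference of 0.77 ± 0.29, and it was the one higher member at an unadjusted p below 0.05 (limma adjusted p = 0.423). Its difference ranged from 0.53 to 0.93 with 1 array left out. That value comes from an _s_at probe set, and the other tested probe set of Sf3a2 differed by -0.08 ± 0.16, with groups that overlapped. Sf3a1 and Sf3a3 differed by -0.03 ± 0.19 and 0.05 ± 0.17. Sf3b4 differed by 0.01 ± 0.23, and the sign of both Sf3a3 and Sf3b4 turned under other settings.

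Bright probe sets as a whole read lower in DBAxFVB F1, so the member probe sets were set beside all tested probe sets of the same mean level. At a mean of 3 to 4, the 33 member probe sets had a median of -0.38 and all 7775 one of 0.07. At 4 to 5 it was -0.51 for 22 member probe sets and 0.03 for all, and at 5 to 6 it was -0.905 for 10 and -0.12 for all. At 6 to 8 the 7 member probe sets had a median of -0.81, against -0.44 for all 828. With 1 probe set per gene, the 5 member genes at 5 to 6 had a median of only -0.16. Of these, 60% were lower, against 61.5% of all probe sets in that range. The medians were -0.25 for 15 member genes at 3 to 4, -0.70 for 11 at 4 to 5 and -0.81 for 7 at 6 to 8. In the range of 3 to 4, 36.4% of member probe sets were lower at an unadjusted p below 0.05, against 6.46% of all. In that of 6 to 8 the shares were 57.1% and 16.9%. Above 8 there was 1 member probe set, of Hnrnpab, whose -0.38 lay nearer to 0 than the median of -0.50 for all 457. After quantile normalization the median over member genes was -0.29, with 15 lower at an unadjusted p below 0.05, against 5.67% of all named genes.

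**Figure D3:**
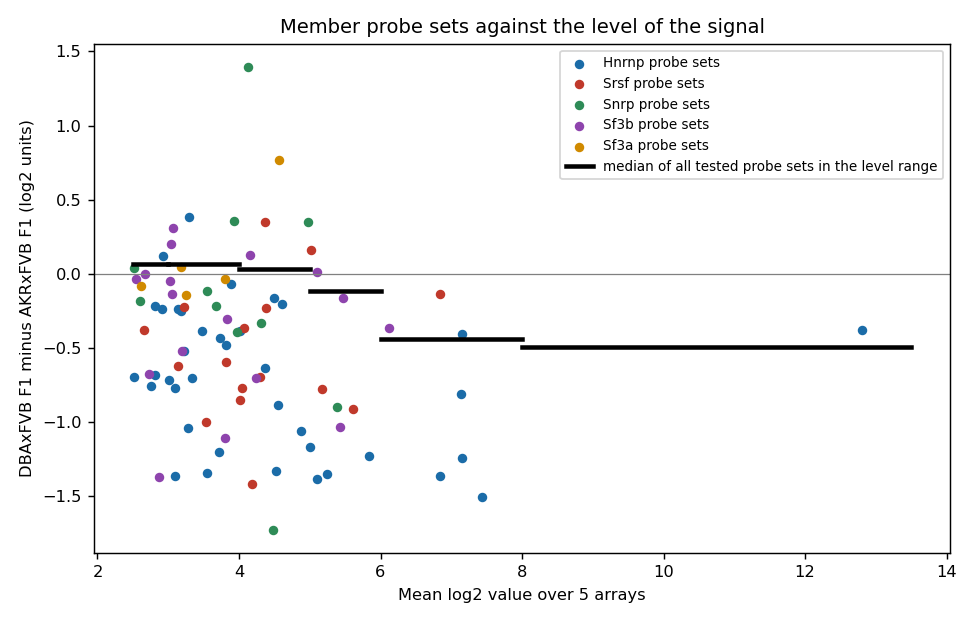
Difference between the crosses (log2 units) against the mean log2 value over 5 arrays for the 87 tested member probe sets, coloured by family, with black lines for the median of all tested probe sets in each range of level. The lines run from 0.07 at a mean of 3 to 4 down to -0.50 above 8, and most member points lie below them.

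Several probe sets measured the same gene for 23 of the 42 genes, and they did not always give the same size. Over all 87 tested member probe sets, 73 were lower, and 39 had an unadjusted p below 0.05 in that direction (44.8%, against 6.79% of all probe sets), while 1 was higher at that p (3.59% of all). The groups were separate for 45 lower ones (12.6% of all) and 4 higher ones (16.4% of all), and 18 were lower by a fold of 2 or more (2.35% of all). The 73 lower ones include 5 with a DBAxFVB F1 mean below the filter, which could pass it only with a lower sign. All of these but that of Srsf1 are also among the 39. In 16 of these 23 genes all tested probe sets were lower, in 1 (Sf3b4) all were higher, and in 6 the signs were mixed. The mixed ones were Hnrnpdl, Hnrnpr, Sf3a2, Sf3b2, Snrpd3 and Srsf2. All 4 of Hnrnpu were lower, between -1.06 and -0.48, and all 3 of Hnrnpa2b1, between -1.34 and -0.70. The one at -0.70 had a DBAxFVB F1 mean of 2.24, below the filter, so it could pass only with a lower sign. The same holds for a probe set of Sf3b1, of Sf3b6 and of Srsf1 among these 16 genes, and such signs are no evidence of agreement. Of the 4 of Hnrnpk, 3 lay between -1.24 and -1.17 and the fourth, with an _x_at name, at -0.20 ± 0.23.

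The widest gaps were in Snrpd3, as given above, and in Hnrnpdl. There, the brightest probe set read 7.81 and 7.5 against 7.03, 5.34 and 6.50 (-1.36 ± 0.50), a difference that was -0.89 without DBAxFVB F1 array 2 and -0.83 after quantile normalization, while the _s_at probe set read 2.96 and 3.16 against 3.55, 3.61 and 3.17 (0.38 ± 0.19). Hnrnpr had -1.36 by the probe set described and 0.12 ± 0.18 by the other tested one, whose groups overlapped. Hnrnpf had -1.39 ± 0.28 by a further probe set, but -0.39 ± 0.43 by its _a_at probe set, which read 4.3 and 4.2 against 4.39, 4.3 and 2.9 and thus was low only on the array that stood apart. Srsf1 ranged from -1.42 ± 0.30 (an _x_at probe set) to -0.38 ± 0.29. In Srsf2 the 3 probe sets ran from -0.62 to 0.35, and in Sf3b2 the 6 ran from -0.52 to 0.31. Brightness did not pick out the larger difference in every gene: Sf3b1, at -0.37 by its brightest probe set, had -1.03 ± 0.31 and -1.37 ± 0.24 by the other 2 tested, of which the latter had a DBAxFVB F1 mean of 2.33, below the filter. Sf3b6 had -0.31 by its brightest and -1.11 ± 0.25 by its _a_at probe set. In all, 5 of the 87 tested member probe sets had a DBAxFVB F1 mean below the filter and 1 an AKRxFVB F1 mean below it; these passed through the other group.

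**Figure D4:**
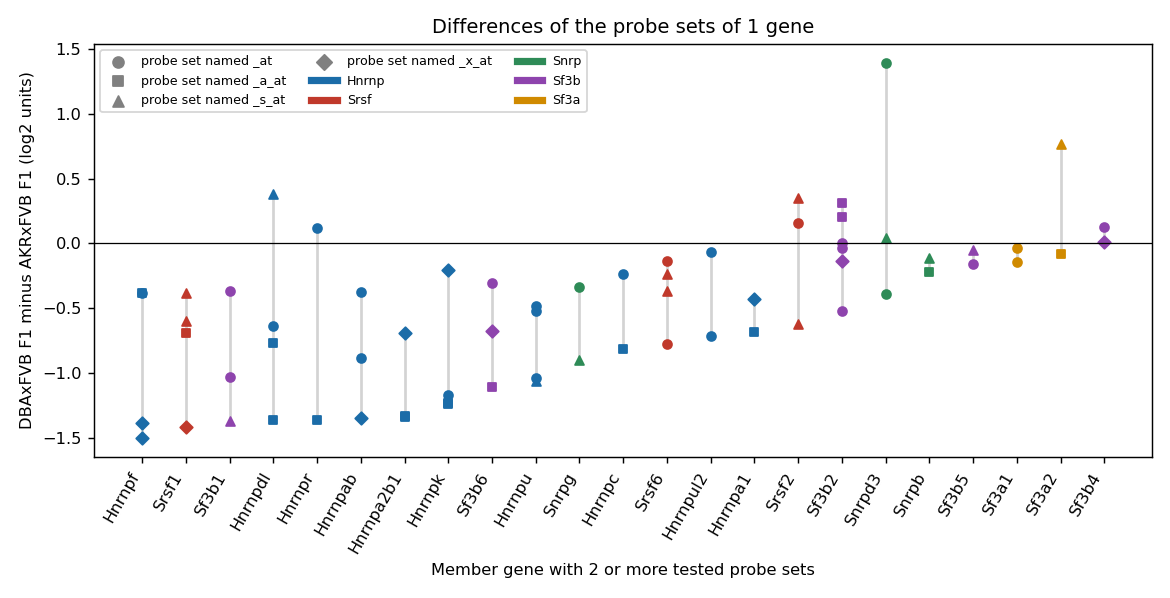
Difference between the crosses (log2 units) of every tested probe set for the 23 member genes with 2 or more, coloured by family and shaped by the ending of the probe set name. In 16 genes all points lie below 0, and the widest gap is that of Snrpd3, from -0.39 to 1.39.

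The array's design marks probe sets with an _s_at or _x_at name as matching more than 1 transcript, and hnRNP genes such as Hnrnpa1 have many processed copies. A value from such a probe set can therefore hold signal of related transcripts. Of the 26 tested member probe sets with these names, 21 were lower (80.8%) and 11 had an unadjusted p below 0.05 in that direction (42.3%). Of the 61 with other names, 52 were lower (85.2%) and 28 had such a p (45.9%). Over all tested probe sets these shares were 43.2% and 6.79%. Both sets had medians close together, at -0.41 and -0.39. Hnrnpa1 itself differed by -0.43 ± 0.18 with an _x_at probe set and by -0.68 ± 0.15 with an _a_at one.

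The median over the member genes was higher on both AKRxFVB F1 arrays than on any DBAxFVB F1 array. With each gene taken relative to its mean over the 5 arrays, the median over the 42 genes was 0.35 and 0.28 in AKRxFVB F1 and -0.15, -0.18 and -0.24 in DBAxFVB F1. The Hnrnp genes gave 0.43 and 0.39 against -0.22, -0.29 and -0.35, and the Srsf genes 0.32 and 0.31 against -0.09, -0.24 and -0.25. The Snrp medians lay closer together, with 0.07 and 0.00 against -0.14, -0.10 and -0.06. The B cell markers taken the same way gave 0.92 and -0.06 against -0.65, -0.62 and 0.08. The T cell markers gave 0.11 and 0.30 against 0.18, -0.365 and -0.20, so that both lists had medians that overlapped between the crosses. The summed signals of the same lists did not overlap, as given above, so the overlap depends on the summary used. The Sf3a medians overlapped too, at -0.04 and -0.02 against -0.02, 0.12 and 0.04. In whole blood, fewer cells of a type and less RNA per cell cannot be told apart.

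**Figure D5:**
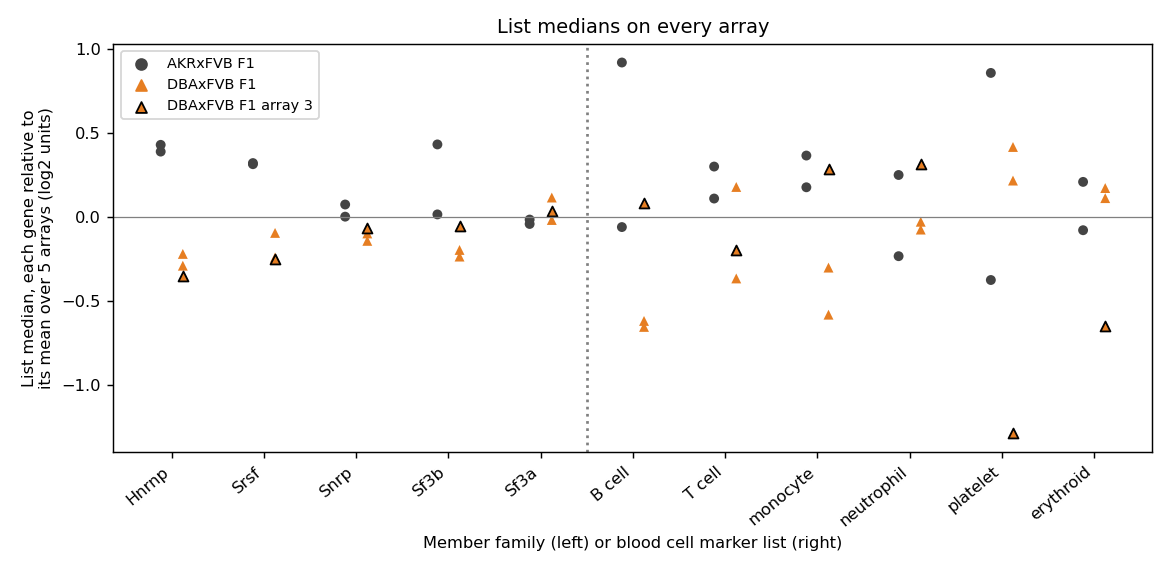
Median over the genes of each member family (left) and each blood cell marker list (right) on every array, with each gene relative to its mean over the 5 arrays (log2 units). The Hnrnp circles, at 0.43 and 0.39, lie above all its triangles. In the B cell list 1 triangle (0.08) lies above the lower circle (-0.06), while its summed signals did not overlap between the crosses.

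Other genes of the splicing pathway, from lists that leave out the members, were also counted. Of 120 tested, 24 had an unadjusted p below 0.05 and were lower, which is 20% of them, against 6.4% of all named genes. A further 3 were higher at that p, against 3.62% of all, and the median was -0.14. None had an adjusted p below 0.05. RNA-binding regulators of splicing outside the Hnrnp and Srsf names had 20 of 25 lower, 10 of them at that p, and a median of -0.70. Among them, Khdrbs1, a signalling-responsive regulator, read 4.46 and 4.18 against 2.90, 3.06 and 3.15, a difference of -1.28 ± 0.18 (limma adjusted p = 0.131). Qk, a STAR-family RNA-binding protein, read 4.98 and 4.08 against 2.81, 2.98 and 2.87, a difference of -1.65 ± 0.27. In both genes the groups were separate. The genes named from each of these lists had its smallest p, which goes with separate groups, so their separation is no further support.

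The SR-related and SR kinase list had 14 of 22 lower, with 5 lower (22.7%) and 1 higher at an unadjusted p below 0.05 (median -0.05). Beside these counts and those below, 6.4% of all named genes were lower and 3.62% higher at that p. Tra2b, an SR-like activator, differed by -1.35 ± 0.30 and Son, a large speckle protein, by -1.20 ± 0.26. Factors of U1 and of branch point recognition had 16 of 19 lower, 5 of them at that p (26.3% of those tested, median -0.17). The helicase Ddx39b differed by -1.13 ± 0.27 and Rbm17 by -0.95 ± 0.24. The U4/U6.U5 particle list had 11 of 17 lower, with 2 lower (11.8%) and 1 higher at that p (median -0.10). Lsm8 differed by -0.95 ± 0.24 (-0.61 without AKRxFVB F1 array 1) and Prpf31, in the other direction, by 0.51 ± 0.14. For the Prp19 complex and the catalytic helicases, 11 of 19 were lower and 0 had an unadjusted p below 0.05 by limma in either direction (median -0.03), with Dhx16 at -0.38 ± 0.20 and Ppie at -0.28 ± 0.16. Without AKRxFVB F1 array 2 these were -0.69 and -0.17, and without AKRxFVB F1 array 1 Dhx16 was under the filter.

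Genes for the assembly of snRNPs had 5 of 11 lower and a median of 0.08. For 2 of the lower ones the unadjusted p was below 0.05 (18.2% of those tested, against 6.4% of all named genes). These 2 were Clns1a, which presents Sm proteins to the methylating complex and read 4.99 and 4.59 against 3.16, 2.85 and 3.37 (-1.66 ± 0.23, limma adjusted p = 0.131), and Tgs1, which methylates the cap of the snRNA, at -0.90 ± 0.17. The exon junction and export list had 5 of 7 lower, with 0 lower and 1 higher at an unadjusted p below 0.05 by limma: Eif4a3, the junction's helicase, read 2.92 and 3.07 against 3.39, 3.55 and 3.68 (0.55 ± 0.17), with separate groups. Upf2, of nonsense-mediated decay, differed by -0.36 ± 0.16.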

How the data were processed

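The authors deposited 1 normalized log2 value per probe set and array (the base was inferred from a range of 1.29 to 14.8). MAS5 and RMA are named, per the submitters' processing notes; which of them gave these values is not given in the sources used here, so background correction and scaling are unknown and folds of dim probe sets may be too small. Of 45101 probe sets, 34958 had 1 gene symbol, 932 several, which were tested but not named, and 9211 none. The 64 array controls were left out. Of the members' names, 5 occurred only in probe sets with several symbols (Hnrnpa1l2-ps2, Hnrnpa3, Snrpa, Snrpd1 and Snrpd2) and were not analysed here.

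Probe sets with a mean at or above 2.51 (22519) entered a model in limma 3.58.1 (R 4.3.3) with the cross alone, a variance trend in eBayes and 3 residual degrees of freedom, tested two-sided, and p-values were adjusted by Benjamini-Hochberg over all of them. On simulated data of 10 runs with 4-fold changes, limma recovered 1515 of 2000 changed probe sets and called 46 of 223190 unchanged ones. The simulated noise was normal and independent between probe sets, with no array that stood apart, so these rates need not hold for the real arrays. Values on every array, or a difference with its SE, were given for up to 8 members per direction with the smallest p, up to 6 genes with the widest gap between probe sets and 2 genes per other list; further members were named for their difference, and the values on every array of Srsf3, Srsf11, Snrpg, Snrpb2, Sf3b1 and Sf3b3 were added after they had been seen. Members and lists were chosen with earlier results of these data known, so no test of a list was made. Tables were prepared with Python 3.11.15 and pandas 2.3.3.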

Additional observations from a re-analysis of the deposited data

How the results depend on the processing

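No member and no probe set passed an adjusted p below 0.05 in any of 14 alternative fits, or below 0.1 in the reported one; below 0.25 there were 8 members and 492 probe sets. The 19 lower members at an unadjusted p below 0.05 numbered 12 to 18 with 1 array left out, 15 after quantile normalization, 16 when probe sets named _s_at or _x_at were dropped (chosen after seeing the data), and 39 of 87 over all member probe sets. The higher count of 1 was 2 without a filter and 0 to 2 with 1 array left out. The median of -0.39 was -0.29 after quantile and -0.34 after cyclic loess normalization, and -0.49 to -0.38 with 1 array left out; the cause was not tested. Without a filter, 16 of 35 genes had probe sets of 1 sign, against 17 of 23.

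The labels number the replicates, and nothing in the labels ties arrays of the same number. Deviations from the group means correlated at -0.26 for arrays 1 and 0.17 for arrays 2. The deviations of the 2 AKRxFVB F1 arrays are mirror images of each other, so this check cannot decide on pairing. With the replicate number as a block, which leaves DBAxFVB F1 array 3 without a partner, 18 members were lower at an unadjusted p below 0.05, and the median was -0.38. The higher member at that p was then Snrpd3 (limma adjusted p = 0.278) in place of Sf3a2 (limma adjusted p = 0.488), and no adjusted p came below 0.05. Signs turned for some values near 0. Srsf2 was -0.0004 without DBAxFVB F1 array 3 or with the block (-0.0004 to 0.2536 with 1 array left out). Sf3b4 was -0.0042 with the block and -0.0335 after median centring (-0.1343 to 0.1534 with 1 array left out). Sf3a3 was -0.0192 after cyclic loess normalization (-0.0721 to 0.1153 with 1 array left out). The _s_at probe set of Snrpd3 was -0.0132 after cyclic loess normalization, -0.0032 after median centring and -0.0010 after quantile normalization (-0.0528 to 0.0602 with 1 array left out). With 1 array left out, the dimmer probe set of Hnrnpr ran from -0.1439 to 0.3774 and an _s_at probe set of Srsf1 from -1.3464 to 0.1551. The _a_at probe set of Hnrnpf was 0.0960 with the block (-0.6506 to 0.0960 with 1 array left out). The values carry no detection call, so it is unknown which probe sets near the filter lie above background.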
